A study of Mus musculus with 3 samples.

Results

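The EGF receptor family and its ligands were followed in NMuMG, a cell line of mouse mammary epithelium. The set held 10 genes chosen by symbol: the receptor genes Egfr, Erbb2 and Erbb3 and the ligand genes Areg, Ereg, Hbegf, Tgfa, Btc, Nrg1 and Epgn. Of these, 9 of 10 were measured among 19935 genes in all, each by a single probe set. The annotation used pairs no probe set with Areg alone, so its level is not given. Cells of 2 stable clones, clone 4 and clone 10, carried pCAGIP-FLAG-MafK, which encodes FLAG-tagged MAFK, and were measured on 1 Affymetrix array each (MAFK, n = 2). Cells with the empty vector pCAGIP (mock) were measured on 1 array (mock, n = 1). MAFK belongs to the small MAF proteins, which bind DNA as basic leucine zipper proteins and lack a transactivation domain. All cells were kept in serum with puromycin. The MAFK lines are clonal and the labels do not call mock a clone, so that MAFK expression and clonal origin cannot be told apart. The labels do not say that cultures were repeated. The p-values rest on the spread between the 2 clones, which may be technical, and hold no spread of mock.

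The ERBB receptors are receptor tyrosine kinases that pair when a ligand binds and signal through RAS, the ERK kinases and PI3 kinase. ERBB2 has no known ligand and ERBB3 has little kinase activity, so both act mainly as partners of other receptors. The ligands are made as membrane-bound precursors and released by ADAM proteases. In the mammary gland, EGFR signalling is known for its part in the growth of the ducts.

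Values are log2 RMA values, a normalised array intensity per probe set, and a difference of 1 on this scale is 2-fold. Array medians were 6.92 in clone 4, 6.93 in clone 10 and 6.89 in mock, and for 55.5% of genes the clones had equal values. For 34.3% of genes all 3 arrays had equal values. The probe set of Mafk read 8.74 and 8.59 in clones 4 and 10 and 8.49 in mock. It was not analysed here whether these probes can see the transgene, and the reading checks no label. Of 8 epithelial markers, all measured, the keratin genes Krt8, Krt18 and Krt19 read between 10.92 and 13.67 on the 3 arrays. The other 5 read near or below the array medians: the keratin gene Krt7 between 6.74 and 7.11, the claudin genes Cldn3, Cldn4 and Cldn7 between 6.40 and 7.01, and the adhesion gene Epcam at 5.58 on each array. Cdh1, the gene of E-cadherin, read 6.85 and 6.64 in clones 4 and 10 and 11.35 in mock. Endothelial markers (4 of 4 measured) read between 5.95 and 6.39, immune markers (5 of 6 measured) between 5.22 and 7.88 and adipocyte markers (4 of 4 measured) between 5.44 and 6.84, with none 2-fold apart from mock in both clones. Fibroblast markers (6 of 6 measured) read between 5.08 and 8.0, with 3 above mock in both clones, 2 below and 1 equal on all arrays. Only the proteoglycan gene Dcn was 2-fold apart, and lower with MAFK. It read 5.76 and 6.06 in clones 4 and 10, against 7.88 in mock (limma adjusted p = 0.0711). The collagen gene Col1a2 went the other way, by 0.85 in clone 4 and 0.58 in clone 10.

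Within the family, 1 ligand gene stood apart from mock by over 2-fold in both clones, and the receptors did not. Ereg was 3.32-fold lower with MAFK, Hbegf was lower by less than 2-fold, and the other 7 measured members lay within 0.3 log2 units of mock in each clone. Of the 9 measured members, 1 was at least 2-fold lower in both clones, where 1.81% of all genes were, and none was 2-fold higher, where 1.19% of all genes were. A gene is said here to rise or fall if it met the 2-fold rule and had a limma adjusted p under 0.05, as 0.401% of all genes rose and 0.762% fell. Equal clone values favour passing this test, so some of these genes may be false calls. No member rose or fell by this rule. Of the members 1, Ereg, had an unadjusted limma p under 0.05. The share of all genes with such a p is not given here, so this count is a description only. The median difference of the members was 0 in each clone, as it was over all genes. Of all genes, 80.1% also lay within 0.3 log2 units of mock in each clone.

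**Figure D1:**
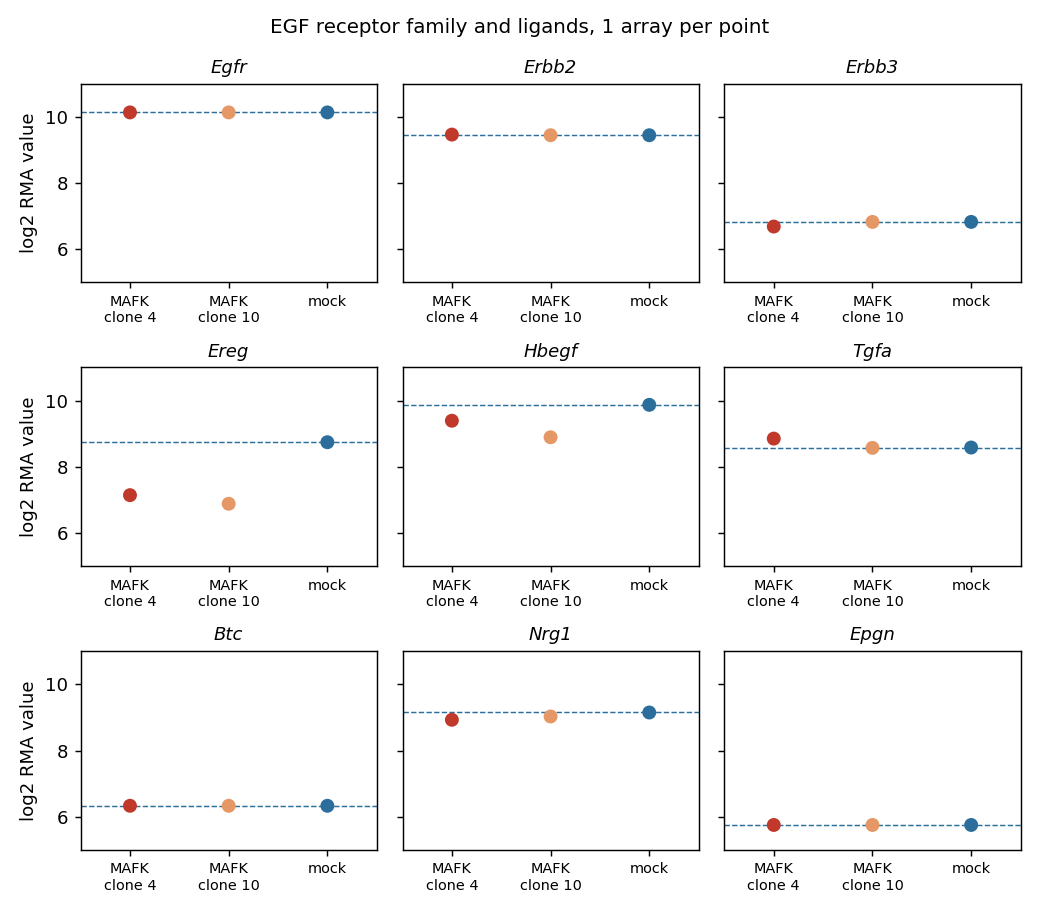
Log2 RMA value (vertical axis) of the 9 measured members in MAFK clone 4, MAFK clone 10 and mock, 1 array per point, with the mock value as a dashed line. Ereg read 7.14 and 6.88 in the clones and 8.74 in mock, and Hbegf 9.39 and 8.89 in the clones and 9.87 in mock.

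The receptor genes were level across the arrays. Egfr, the gene of the receptor for EGF, TGF-alpha, amphiregulin and other ligands, read 10.13 in clone 4, in clone 10 and in mock. Erbb2, the ligandless partner receptor, read 9.46 in clone 4, 9.44 in clone 10 and 9.44 in mock. Neither gene thus differed by more than 0.02 log2 units between any arrays. Erbb3, which binds neuregulins, read 6.68 in clone 4, 6.82 in clone 10 and 6.82 in mock. All 3 of its values lie below the median of their array, where RMA compresses differences. The limma adjusted p was 1 for each of the 3 receptor genes. Equal values over few arrays can come from the median polish step of RMA and do not show that the transcript levels were the same.

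Ereg encodes epiregulin, a ligand of EGFR and ERBB4. It read 7.14 in clone 4 and 6.88 in clone 10, against 8.74 in mock. Clone 4 was 3.04-fold and clone 10 3.62-fold lower than mock, a far larger distance than that between the clones, whose mean was 7.01 ± 0.18 (SD, n = 2). The difference of MAFK from mock, -1.73 ± 0.145 (SE) on the log2 scale, did not pass (limma adjusted p = 0.0700). The call depends on how the variance of genes is pooled. With limma's usual prior from all genes the adjusted p was 0.0498, and with an intensity trend 0.0407. Over all 6 alternatives it ranged between 0.0407 and 0.0899. The difference was -1.73 in each, though only the second quantile normalization among them could change it. The clone 10 value lies below the array median, so the fold may understate the difference.

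Hbegf encodes heparin-binding EGF-like growth factor, which also binds EGFR and ERBB4. It read 9.39 in clone 4 and 8.89 in clone 10, against 9.87 in mock. Clone 10 was 1.97-fold and clone 4 1.39-fold lower than mock, so Hbegf stayed just outside the 2-fold rule in 1 clone and well outside it in the other. The mean difference was -0.73 ± 0.266 (SE), with a limma adjusted p of 0.354. Clone 10 minus clone 4 was -0.51 log2 units, and 2.04% of all genes had clones at least 0.5 apart. That spread has no replicate within a clone to set it against.

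Tgfa, the gene of TGF-alpha, a ligand of EGFR, read 8.85 in clone 4 and 8.57 in clone 10, against 8.58 in mock. Clone 4 alone was above mock, by 0.27, and the limma adjusted p was 1. Nrg1, which encodes neuregulin 1, the ligand of ERBB3 and ERBB4, read 8.93 in clone 4 and 9.03 in clone 10, against 9.15 in mock. Both clones were slightly lower, with a mean difference of -0.17 ± 0.0846 (SE) and a limma adjusted p of 0.510. Nrg1 lies on chromosome 8, whose 955 measured genes had a mean difference of 0.12 and a median of 0.05 in each clone. Both are in the opposite direction to Nrg1. Whether the chromosome's genes shift together, and what part this has in the Nrg1 value, was not tested.

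Btc and Epgn read below the array medians everywhere. Btc, the betacellulin gene, read 6.33 in both clones and in mock. Epgn, the epigen gene, read 5.75 in both clones and in mock. No difference was detectable for either at these signal levels, and no detection calls were used.

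**Figure D2:**
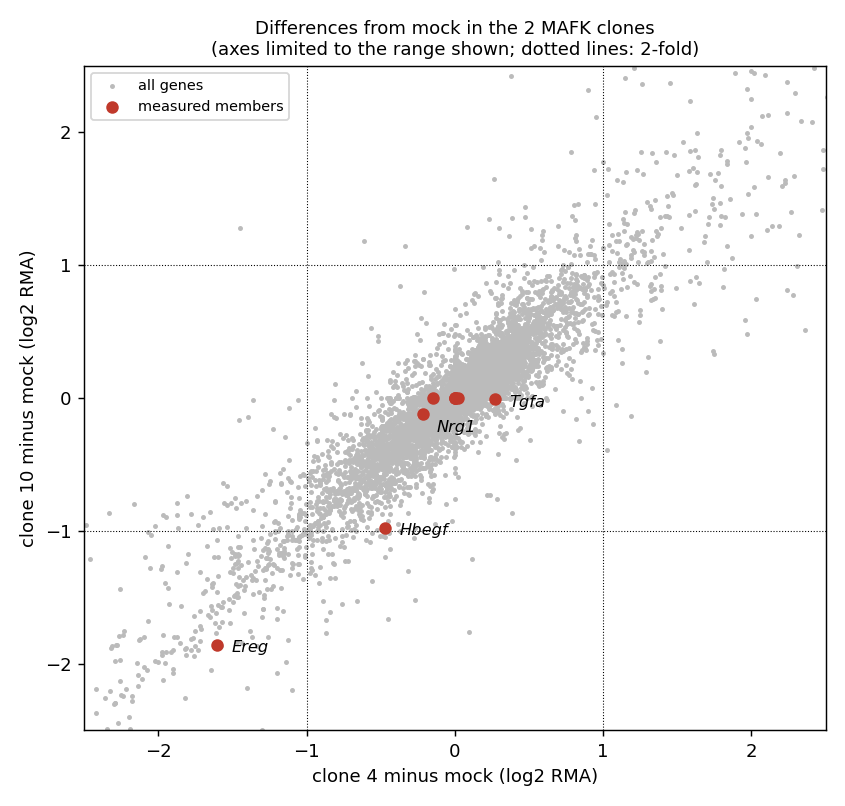
Difference from mock on the log2 RMA scale in clone 4 (horizontal axis) and clone 10 (vertical axis) for all genes within 2.5 log2 units (grey) and the 9 measured members (red), with dotted lines at 2-fold. Ereg lies in the lower left beyond 2-fold at -1.60 and -1.86, Hbegf at -0.47 and -0.98, and the other members near 0.

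Both clones are set against the same mock array in the plot of clone differences, so an error in that array would move a gene the same way along both axes. The 3 genes whose pair of differences lay closest to that of Ereg, among 10504 other genes reaching the median of all probe sets, were Abcc4, Bmp4 and Sema3c. Abcc4, an export pump gene, read 8.81 and 8.52 in clones 4 and 10, against 10.38 in mock. Bmp4, which encodes a bone morphogenetic protein, read 8.98 and 8.82 in the clones, against 10.59 in mock. Sema3c, a secreted semaphorin gene, read 9.64 and 9.53 in the clones, against 11.36 in mock. Their distances from Ereg were 0.0294, 0.0916 and 0.12 log2 units over the 2 differences. Such closeness over 3 arrays describes size and direction only. Sema3c fell by the rule above (limma adjusted p = 0.0405), whereas Abcc4 and Bmp4 did not pass, with limma adjusted p-values of 0.0774 and 0.0505. With an intensity trend both passed (limma adjusted p-values of 0.0483 and 0.0279), and Bmp4 also passed with the usual prior and with low genes left out (limma adjusted p-values of 0.0336 and 0.0489).

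Ereg, Epgn, Areg and Btc are neighbours on chromosome 5, next to a group of CXC chemokine genes, so the measured genes around Ereg were set out in chromosome order. Of the 10 measured genes on each side, 5 of 20 met the 2-fold rule in the lower direction and none in the higher. This window was chosen after the values of Ereg were seen, and the share of 1.81% over all genes stands beside it as a description. All 5 lie on the Epgn side. Cxcl5, a neutrophil-attracting chemokine gene, read 5.62 and 5.66 in clones 4 and 10, against 11.08 in mock. Its neighbour Ppbp, also a chemokine gene, read 5.98 and 6.36 in the clones, against 10.68 in mock. Rassf6, a gene of the RAS association domain family, read 5.04 and 5.07 in the clones, against 8.40 in mock. These 3 genes fell, with limma adjusted p-values of 0.0256, 0.0361 and 0.0256, though Ppbp did not pass after a second quantile normalization (limma adjusted p = 0.0569).

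Closer to Ereg, the chemokine gene Cxcl15 fell 2.93-fold (limma adjusted p = 0.0364). Cxcl1, another neutrophil chemokine gene, read 8.61 and 8.42 in the clones, against 9.84 in mock (limma adjusted p = 0.0731), and passed with limma's usual prior (adjusted p = 0.0489) and with an intensity trend (adjusted p = 0.0404). Not every gene in between read lower. Pf4 and Cxcl3 had the same value on all 3 arrays, and Cxcl2 differed by 0.03. In mock these genes read 5.80, 5.29 and 5.89, below the array median of 6.89, where a fall could hardly be seen. They thus cannot show whether the lower values form an unbroken run. Mthfd2l, next to Epgn, read 8.68 in mock and was lower by less than 2-fold. It differed by -0.22 in clone 4 and -0.33 in clone 10. Beyond Btc, the mucin-like gene Parm1 differed from mock by -0.81 in clone 4 and -1.36 in clone 10 (limma adjusted p = 0.243). Over the whole of chromosome 5 the mean difference was 0.04 in each clone across 1139 genes, of which 25 were 2-fold lower in both clones (2.19%).

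**Figure D3:**
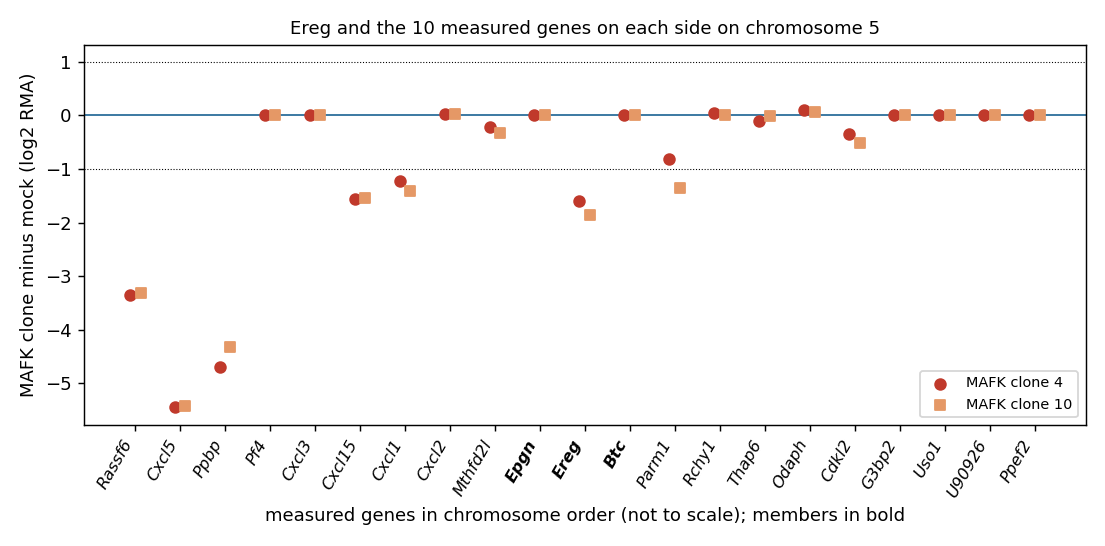
Difference from mock on the log2 RMA scale (vertical axis) in clone 4 and clone 10 for Ereg and the 10 measured genes on each side, in chromosome order and not to scale, with members in bold. Cxcl5 lies lowest, at -5.45 and -5.42. Ereg, at -1.60 and -1.86, stands between Epgn and Btc, which read below the array medians on every array.

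The promoters of Epgn and Btc are shown as those of the ligand genes on either side of Ereg that read the same in the clones and in mock. Each sequence is from RefSeq (build GRCm38.p6) and gives the 250 bases before the gene's start, 5′ to 3′ on the gene's strand. Epgn lies on the plus strand (chr5:91027267-91027516) and Btc on the minus strand (chr5:91402995-91403244).
Epgn: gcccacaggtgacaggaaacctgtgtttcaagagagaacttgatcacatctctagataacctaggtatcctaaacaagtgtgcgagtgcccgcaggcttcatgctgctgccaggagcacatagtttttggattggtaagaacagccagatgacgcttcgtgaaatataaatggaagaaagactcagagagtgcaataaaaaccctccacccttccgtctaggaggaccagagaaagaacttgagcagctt
Btc: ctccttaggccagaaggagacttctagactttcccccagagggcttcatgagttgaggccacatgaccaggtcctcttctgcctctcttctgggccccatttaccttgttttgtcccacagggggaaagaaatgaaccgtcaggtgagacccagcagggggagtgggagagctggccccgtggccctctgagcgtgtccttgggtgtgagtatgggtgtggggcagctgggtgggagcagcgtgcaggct
Both were searched on both strands for TGCTGA, the outer part of the element bound by MAF proteins, and for TGANTCA, the AP-1 type core of that element. Neither motif occurs in these bases, so no letters are in capitals. In the 300-base windows around the start, 19.1% of 27025 promoters hold TGCTGA and 7.93% hold TGANTCA. Promoters of 6 members were searched (Epgn, Areg, Btc, Tgfa, Egfr and Erbb2). Those of the other members, Ereg among them, were not, so the search does not bear on Ereg. Areg alone among the 6 searched holds TGCTGA, and none of the 6 holds TGANTCA. A match of letters is a description and no binding site, and MAFK binding was not measured here.

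Genes that act around the receptors were set out in 5 lists. Egf, Erbb4, Nrg2, Nrg3 and Nrg4, the remaining receptor and ligand genes, were all measured, and none was 2-fold apart from mock in both clones. Egf had the largest difference in this group, 0.19 in each clone (limma adjusted p = 0.348), followed by Nrg2, at 0.19 in clone 4 and 0.17 in clone 10 (limma adjusted p = 0.381). With limma's usual prior or an intensity trend, the limma adjusted p of both genes was under 0.05, at far less than 2-fold. That of Egf was also under 0.05 after a second quantile normalization. All readings of this group lay between 5.83 and 7.47.

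Of 13 measured genes of ligand shedding, 1 was 2-fold lower in both clones (1.81% of all genes were), and none rose or fell. The list includes Timp1, Timp2 and Timp3, genes of metalloproteinase inhibitors. Adam8, the gene of a membrane metalloprotease, read 6.91 and 7.0 in clones 4 and 10, against 8.17 in mock, and was 2.32-fold lower without passing (limma adjusted p = 0.0566). It did pass with limma's usual prior (adjusted p = 0.0299) and with an intensity trend (adjusted p = 0.0246). Adam10 and Adam17, whose products are the main sheddases of these ligands, were lower by less than 2-fold. Adam10 read 9.97 and 9.98 in the clones, against 10.52 in mock, and Adam17 read 9.24 and 9.38 in the clones, against 9.64 in mock. Their limma adjusted p-values were 0.109 and 0.271, and both genes were chosen after their values were seen. Of the whole list, 4 genes were below mock in both clones and 3 were above in both. On all arrays 3 read the same, where 34.3% of all genes did. Shares of all genes above or below mock are not given here, for this list or those that follow. Timp2 differed from mock by -0.87 in clone 4 and -0.68 in clone 10, and Timp3 by 0.47 and 1.00.

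Among 21 measured negative regulators of ERBB signalling, none was 2-fold apart in both clones, with 7 above mock in both and 6 below. Spry1, a Sprouty inhibitor of RAS and ERK signalling, read 9.53 and 9.08 in clones 4 and 10, against 8.15 in mock (limma adjusted p = 0.184). Socs5, a suppressor of cytokine and EGFR signalling, read 9.78 and 9.83 in the clones, against 8.92 in mock (limma adjusted p = 0.0695). Errfi1, the feedback inhibitor of EGFR also known as MIG6, read 10.30 on all 3 arrays and was chosen after its values were seen. Of 30 listed genes that carry the signal below the receptors, 24 were measured and none was 2-fold apart in both clones. Ranked by the smaller of the clones' differences, the first were those of Pik3r2, a regulatory subunit of PI3 kinase, at 0.85 in clone 4 and 0.83 in clone 10 (limma adjusted p = 0.0695), and of the adaptor gene Nck1, at -0.56 in each clone (limma adjusted p = 0.106). Another adaptor gene, Shc1, chosen after its values were seen, lay close to Nck1, at -0.56 in clone 4 and -0.57 in clone 10 (limma adjusted p = 0.105). The limma adjusted p of Socs5, Pik3r2 and Nck1 was under 0.05 with limma's usual prior, an intensity trend or a second quantile normalization. None of them met the 2-fold rule there.

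Of 24 measured genes known to respond to ERK signalling, 1 was 2-fold higher (1.19% of all genes were), 1 was 2-fold lower (1.81%) in both clones, and 1 fell. Ier3, an immediate early gene, read 7.92 and 7.88 in clones 4 and 10, against 9.14 in mock, and fell 2.36-fold (limma adjusted p = 0.0461). It did not pass where genes with equal clones were given the prior variance (limma adjusted p = 0.0532) or where probe sets of a gene were averaged (limma adjusted p = 0.0507). Dusp4, which encodes a phosphatase that inactivates ERK, read 9.05 and 8.68 in the clones, against 7.19 in mock, 3.20-fold higher without passing (limma adjusted p = 0.0997). Both directions were present: of the list, 11 genes were above mock in each clone and 8 were below. The median difference of each list was 0 in both clones, as over all genes, except for the remaining receptors and ligands, at 0.08 in clone 4 and 0.11 in clone 10. RNA of whole cultures was measured, so that fewer cells with a transcript and less transcript per cell cannot be told apart.

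**Figure D4:**
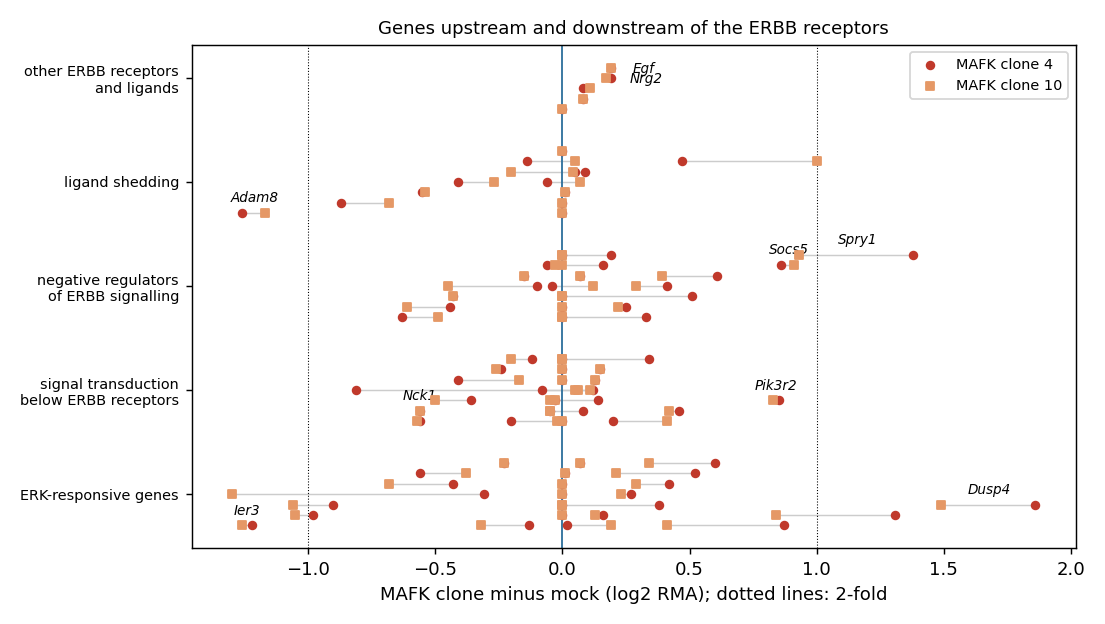
Difference from mock on the log2 RMA scale (horizontal axis) for each measured gene of 5 lists, with clone 4 and clone 10 joined by a line and dotted lines at 2-fold. Adam8 and Ier3 lie beyond 2-fold below mock in both clones and Dusp4 beyond 2-fold above.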

How the data were processed

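The authors deposited 1 log2 value per probe set and array, made with RMA (version not given), per the submitters' processing notes. This method corrects background, quantile normalizes the arrays and summarises probes by median polish. The genome build and filters are not given in the sources used here.

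Of 28815 probe sets, 21780 had 1 gene symbol in the platform annotation. Older symbols were replaced, by Entrez identifier, from a table of GRCm38.p6 genes that was also used for chromosomes and gene order. The probe set with the highest mean stood for a gene. Limma 3.58.1 in R 4.3.3 was fitted over all 19935 genes and 3 arrays (two-sided, Benjamini-Hochberg), with 1 residual degree of freedom per gene, so that mock is assumed to vary as the clones do. The prior (1.93 degrees of freedom, SD 0.0694) came from genes whose clones differed. The fit was tested on simulated data, where equal clone values gave more false calls than the threshold allows and, without them, moderate changes were missed. Precision is limited by having 3 arrays.

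The members, gene lists and this test were chosen with earlier results of these data known. The text names all members, list genes that differed by 2-fold or more in each clone (or, where a list has none, the 2 with the largest smaller difference), and the 3 genes nearest to each member that was 2-fold apart. Genes around Ereg and those marked in the text were chosen after their values were seen. Alternatives were limma's usual prior, an intensity trend, the prior variance for equal clones, a second quantile normalization, low genes left out, averaged probe sets, other folds and each clone left out.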

Additional observations from a re-analysis of the deposited data

How the results depend on the processing

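The direction of Ereg and its place beyond 2-fold held after a second quantile normalization. With a clone left out, the difference is that of the remaining clone. The 2-fold rule already required each clone to be beyond 2-fold, so leaving one out adds no check of Ereg. The other refits change the variance, the other genes or the averaging of probe sets, and could not move its difference. Its test passed in 2 alternatives, limma's usual prior and the intensity trend. With limma's usual prior, 360 genes rose or fell in place of 232, among them 1 member (Ereg), and with an intensity trend 398 genes, again with 1 member. With equal clones given the prior variance the count was 159 genes, with a second quantile normalization 225, with low genes left out 243 and with averaged probe sets 189, with no member in each. At a fold of 1.5, 1230 genes were apart from mock in both clones in place of 598, and at a fold of 3, 287 genes, with Ereg the 1 member in each case. Leaving out clone 4 or clone 10 leaves no degree of freedom for a test. Clone 10 alone gave -1.86 for Ereg and -0.98 for Hbegf, and clone 4 alone gave -1.60 and -0.47. Of 51 values of members retested under the alternatives, 2, both of Ereg, passed where the reported fit did not, and 49 kept their side of the threshold. The 18 values with a clone left out carry no test. Each member had a single probe set, so no second probe set could be compared. Signal limits Epgn, Btc and Erbb3, which read below the array medians, and a difference there may be understated. With 1 mock array, no spread of mock cells was measured. No paired analysis was possible because mock has 1 array and the clones carry no shared replicate numbers.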

Other observations

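Some genes linked to ERBB signalling differed more between the clones than from mock on average, and are given as values chosen after they were seen. Dusp6, which encodes an ERK phosphatase, read 9.47 in clone 4 and 8.48 in clone 10, against 9.78 in mock. Gab1, which encodes an adaptor of receptor tyrosine kinases, read 8.34 in clone 4 and 9.26 in clone 10, against 9.15 in mock. Clone 10 minus clone 4 was -0.98 for Dusp6 and 0.92 for Gab1 on the log2 scale. Each clone was measured once, so these differences have no replicate check.

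Other genes of the ERK-responsive list were near 2-fold in both clones. Epha2, an ephrin receptor gene, read 9.21 and 9.13 in clones 4 and 10, against 10.19 in mock (limma adjusted p = 0.0643). Plaur, the urokinase receptor gene, read 9.38 and 9.22 in the clones, against 10.28 in mock (limma adjusted p = 0.0917). Dusp1, a further phosphatase gene, read 10.95 and 10.49 in the clones, against 9.64 in mock (limma adjusted p = 0.207). None of the 3 passed, and Ccnd1, the cyclin D1 gene, read 12.22 on all 3 arrays.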
